A study of Mus musculus with 50 samples.

Results

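The 9 untreated wild-type mice of the series give the resting transcriptome of frontal cortex synaptosomes, and no other group enters the main values below. They were the 9 arrays labelled WT-43 to WT-51 of 50 in all, chosen by genotype and treatment label and not by any measured value. The animals were Sod2 wild types of the constitutive Sod2 line on a CD1 background, 17 to 21 days old, and received no compound. The other 41 arrays, of Sod2 knockout and wild-type mice given the compound at 1 or 30 mg/kg, entered only alternative settings. There, a normalisation and the estimate of chip effects ran over all 50 arrays. Each array held the synaptosomal RNA of 1 mouse after 1 round of amplification, hybridised to MouseRef-8 bead chips.

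Synaptosomes are pinched-off nerve terminals, often with a piece of the postsynaptic membrane attached, that reseal when brain tissue is homogenised. They hold synaptic vesicles, mitochondria and a local pool of messenger RNA, and preparations can also carry myelin fragments and the fine processes of astrocytes. Mitochondrial subunits encoded in the nucleus, ribosomal proteins and CaMKII are textbook examples of messages found in neuronal processes. Whole-tissue RNA was not analysed here, so none of the levels below says whether a message is richer in synaptosomes than in cortex.

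The lower peak of the signals of an array was taken as its background, and it lay between 52.6 and 65.8 on the 9 arrays. The highest signal of an array was 24161 to 27517. A probe was called above background if it exceeded this peak by the one-sided 5% limit of the spread below it. On average 11569 ± 287 (SD, n = 9) of 25697 probes did so on an array, and 8874 probes (34.5%) did so on all 9. Pairwise correlations of log2 levels over all probes ran from 0.971 to 0.986 across 36 pairs of arrays, and no 2 arrays were identical. Each gene was represented by its brightest probe, and levels are means of background-corrected, quantile-normalised log2 signal. Of 17852 genes, 7008 (39.3%) were above background on all 9 arrays and 6128 on none. The median level was 5.12 over all genes and 4.73 over the genes above background on no array, so levels near 5 are at the floor of the arrays. The top 10% of genes by level (1785 of 17852) began at a level of 8.26.

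Signal was concentrated in few genes. After background was subtracted, the 10 brightest genes held 6.94% ± 0.46 (SD, n = 9) of the summed signal, the 100 brightest 29.8% ± 1.2 and the 1000 brightest 70.6% ± 0.93. Ranks compare probes, not numbers of RNA molecules, because each probe binds with its own efficiency. Among 2694 genes with several probes and the brightest above background on all arrays, the brightest exceeded the dimmest by a median of 2.81-fold, and 979 of these genes (36.3%) also had a probe that was above background on no array.

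Ribosomal proteins, myelin, iron and metal storage and energy metabolism stood at the top of the ranking. The brightest gene was Rplp1, a stalk protein of the large ribosomal subunit, with signals from 22082 to 27176 and a median of 24898. Rpl41, another large-subunit protein, came second with signals of 19987 to 27517. Mbp, myelin basic protein of the myelin sheath, ranked 3 of all genes with signals of 18451 to 26814 and a level of 14.48 ± 0.14 (SD, n = 9). Fth1, the heavy chain of the iron store ferritin, ranked 4 at 14.44 ± 0.06, which made it one of the steadiest bright genes. Mt1, a metallothionein that binds zinc and copper, and Cst3, a secreted protease inhibitor, followed at 14.17 ± 0.18 and 14.16 ± 0.09. The ranges of Rplp1, Rpl41, Mbp and Fth1 overlapped one another, so their order is not resolved by these arrays.

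**Figure D1:**
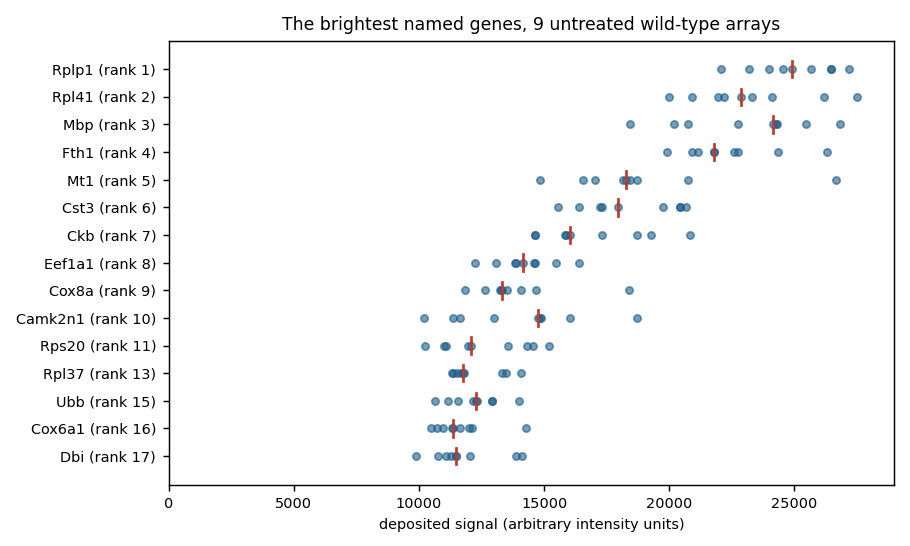
Deposited signal (arbitrary intensity units) of the 15 brightest genes that the text may name, 1 point per array for the 9 untreated wild types, with a red tick at the median. Neighbouring genes overlap, and the 4 brightest, Rplp1, Rpl41, Mbp and Fth1, spread over much the same range.

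The brightest gene with a neuronal name was Camk2n1, an inhibitor protein of CaMKII, at rank 10 with signals from 10197 to 18700. Ckb, brain creatine kinase, stood at rank 7 with 14624 to 20833, and Eef1a1, the elongation factor that brings transfer RNA to the ribosome, at rank 8 with 12236 to 16407. Cox8a and Cox6a1, both subunits of cytochrome c oxidase, were at ranks 9 and 16. Ubb, a polyubiquitin gene, and Dbi, an acyl-CoA binding protein abundant in glia, had levels of 13.56 ± 0.10 and 13.50 ± 0.18. Sod2, the mitochondrial superoxide dismutase that the series manipulates in other animals, ranked 606 with a level of 9.84 ± 0.09 and signals of 821 to 1122 on the 9 arrays.

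Presynaptic genes were bright. Of 32 measured genes of vesicles and transmitter release, 25 (78.1%) were above background on all 9 arrays and 20 (62.5%) lay in the top 10% of genes, where 10% of all genes lie. Their median level was 9.34, against 5.12 over all genes. Syp, the vesicle membrane protein synaptophysin, led them with signals of 4567 to 17002 (median 8647) and rank 28. It was lowest on WT-47 and highest on WT-49, 3.38-fold apart after normalisation, and the other 7 arrays lay between 7247 and 10269. Syt11, a synaptotagmin, ranked 62 with a level of 12.46 ± 0.33, and Cplx1, a complexin that clamps and triggers fusion, ranked 99 at 11.96 ± 0.13. Slc17a7, the vesicular glutamate transporter of cortical neurons, reached 10.67 ± 0.44, and Slc32a1, the vesicular transporter for GABA, 10.12 ± 0.42.

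The postsynaptic list was more mixed. Of 19 measured genes of the postsynaptic density, 13 were above background on all 9 arrays and 7 were in the top 10%, with a median level of 7.79. The kinase subunit Camk2a, whose message is carried into dendrites, ranked 51 with signals of 5640 to 8351, while another probe of it read 343 to 907 and the third 51.7 to 74.8, above background on 0 arrays. Camk2b and Ppp1r9b, a spine protein that binds actin and protein phosphatase, followed at 10.90 ± 0.21 and 10.81 ± 0.24. Dlg4, the scaffold PSD-95, was at 7.67 ± 0.42 with signals of 143 to 293. Of 16 measured genes whose messages are known to lie in dendrites, 12 were above background on all 9 arrays and 10 in the top 10%.

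Transmitter receptors were dim by comparison. Of 16 measured glutamate receptor subunits, 8 (50%) were above background on all 9 arrays and 3 (18.8%) in the top 10%. Among all genes these shares were 39.3% and 10%. The median level of the subunits was 5.54, against 5.12 over all genes. The 3 in the top 10% were the AMPA receptor subunits Gria2 (9.54 ± 0.45) and Gria1 (8.64 ± 0.47) and the kainate receptor subunit Grik5 (8.48 ± 0.15). The probes of the NMDA receptor subunits Grin2a and Grin2b, at 50.02 to 64.9 and 52.5 to 66.8, were above background on 0 arrays. Of 15 measured genes of GABA synthesis and GABA receptors, 7 (46.7%) were above background on all 9 arrays and 2 (13.3%) in the top 10%, close to the 39.3% and 10% of all genes. Among them were the synthetic enzyme Gad1 (8.48 ± 0.37) and the extrasynaptic subunit Gabrd (8.09 ± 0.45).

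**Figure D2:**
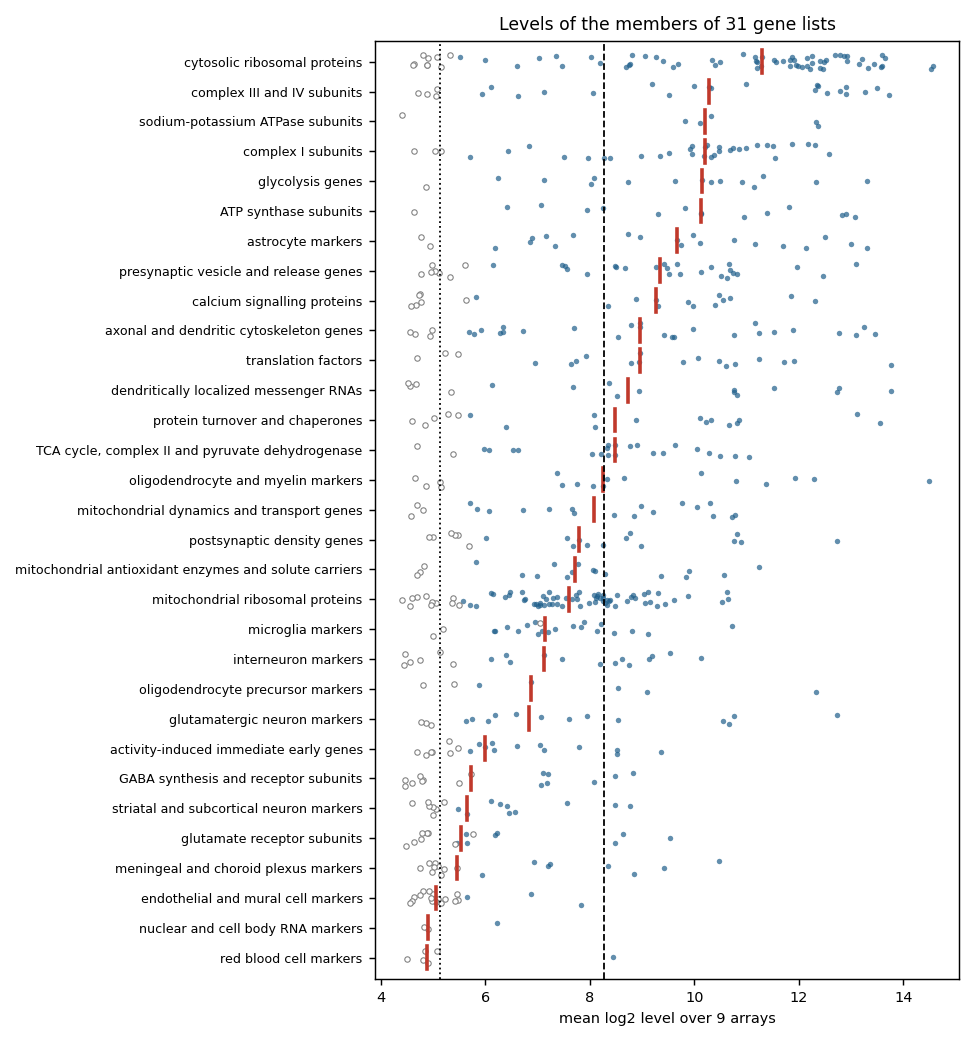
Mean log2 level over the 9 untreated wild-type arrays of each measured member of 31 gene lists, as filled points where the gene was above background on all arrays and open points where it was not. Red bars are list medians, the dotted line is the median of all genes (5.12) and the dashed line the start of the top 10% (8.26). Cytosolic ribosomal proteins, respiratory complexes and astrocyte and presynaptic genes have medians right of the dashed line, and endothelial and red cell markers lie near the dotted line.

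Several genes that neurons are known to express strongly were at background here. The probe of Snap25, a membrane fusion protein of the terminal, read 53.7 to 71.4 and was above background on 1 of 9 arrays. The probes of Bsn (a scaffold of the release site), Dlgap1 (a postsynaptic scaffold), Gad2 (an enzyme of GABA synthesis) and Tubb3 (a neuronal tubulin) were above background on 0 arrays. So were those of Actg1, Pgk1, Tpt1 and Ndufs1, which most cells express. Each of these 9 genes was represented by 1 probe, and whether the probe or the RNA sets the low signal was not tested.

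The cytoskeleton of axons and dendrites was among the bright classes. Of 29 measured genes, 25 were above background on all 9 arrays and 17 in the top 10%, and together they held 2.04% ± 0.12 (SD, n = 9) of the net signal. Tubb2b and Tuba1b, both tubulins, ranked 18 and 23, and Kif5a, a kinesin heavy chain that drives axonal transport, ranked 29 with signals from 5451 to 13689. Of 6 sodium-potassium pump subunits, which restore ion gradients after firing, 5 were in the top 10%. Atp1b1, a beta subunit, was at 12.32 ± 0.37 with signals of 3311 to 8772. Of 19 measured calcium signalling genes, 12 were in the top 10%, and Calm3, a calmodulin gene, ranked 78 with signals of 4444 to 6519.

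Markers of excitatory and inhibitory neurons were both present. Of 16 glutamatergic neuron markers, 13 were above background on all 9 arrays and 5 in the top 10%. Of 19 measured interneuron markers, 13 were above background on all 9 arrays and 7 in the top 10%. Reln, an extracellular matrix protein secreted by interneurons, had signals of 339 to 1246 and a level of 9.53 ± 0.55. Sst, the neuropeptide somatostatin, had signals of 345 to 1297 and a level of 9.20 ± 0.51. Of 17 measured striatal and subcortical markers, 10 (58.8%) were above background on all 9 arrays and 2 (11.8%) in the top 10%, a share near that of all genes (10%). These 2 were the dopamine-signalling phosphatase inhibitor Ppp1r1b (8.76 ± 0.18) and the opioid precursor Pdyn (8.49 ± 0.49).

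Glial messages were also bright. Of 21 astrocyte markers, 19 were above background on all 9 arrays and 13 (61.9%) were in the top 10%, with a median level of 9.66. Aldoc, the aldolase of astrocytes, ranked 21 with signals of 7292 to 12060.2. Slc1a3, a glutamate transporter of astrocyte processes, ranked 32 with 7012 to 10373, and Clu, the secreted chaperone clusterin, ranked 59 with 4544 to 7676. Gfap, the filament protein of astrocyte cell bodies and main branches, was much dimmer, at 96.1 to 241 (level 6.89 ± 0.40). Gfap lies outside the naming rule and was chosen after its values were seen. The probe of Mlc1 was above background on 0 arrays.

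Myelin was represented by more than Mbp. Of 17 measured oligodendrocyte markers, 13 were above background on all 9 arrays and 8 in the top 10%. Olig1, a transcription factor of the lineage, ranked 80 with signals of 4198 to 6464, and Cldn11, a tight junction protein of myelin, ranked 102 with 2776 to 8105. The 3 probes of Mbp did not read alike. The brightest had an SD of 0.14, another read 177 to 260, and the third read 597 on WT-50 and 6136 on WT-47, with an SD of 1.04. Of 7 precursor markers, 5 were above background on all 9 arrays, led by Bcas1 (12.32 ± 0.12), which maturing oligodendrocytes also express, and Gpr17 (9.09 ± 0.32), a receptor of committed precursors.

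Microglia markers were widely detected at moderate levels. Of 22 markers, 19 were above background on all 9 arrays and 4 in the top 10%, with a median level of 7.14 and 0.191% ± 0.027 (SD, n = 9) of the net signal. Laptm5, a lysosomal membrane protein of immune cells, led at 10.72 ± 0.21, and the calcium-binding protein Aif1 was at 8.81 ± 0.33. Vessel markers were rare. Of 20 measured endothelial and mural markers, 3 (15%) were above background on all 9 arrays and 0 in the top 10%. Among all genes these shares were 39.3% and 10%. The brightest of these markers was the glucose transporter Slc2a1 (7.84 ± 0.24). Of 6 measured red cell markers, Hba-a1, an alpha globin, read 236 to 498, and the beta globin probes Hbb-b1 and Hbb-b2 were above background on 0 arrays.

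Markers of the meninges and choroid plexus were uneven. Of 17, 8 (47.1%) were above background on all 9 arrays, near the 39.3% of all genes, and 4 were in the top 10%, with a median level of 5.45. Ttr, the thyroid hormone carrier made by the choroid plexus, reached 10.48 ± 0.34, and Enpp2, a lysophospholipase of choroid plexus and oligodendrocytes, reached 9.41 ± 0.35. In such bulk material fewer cells or fragments of a type and less RNA in each cannot be told apart, and this holds for every marker list here.

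Messages for the respiratory complexes were bright and varied about as much as other genes of their level. The 7 mitochondrial lists together covered 212 genes and held 8.32% ± 0.56 (SD, n = 9) of the net signal. Of 35 measured complex I subunits, 32 were above background on all 9 arrays and 27 (77.1%) were in the top 10%. Complexes III and IV had 16 of 25 and the ATP synthase 10 of 15 subunits there. Median levels were 10.20, 10.28 and 10.12. Ndufa13 and Ndufb8, accessory subunits of complex I, ranked 56 and 87, and Ndufa4, first assigned to that complex, ranked 79. Cox4i1 ranked 22 with signals of 8665 to 12452, and Atp5b, the catalytic beta subunit of the ATP synthase, ranked 30 with 7228 to 10109.

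The rest of the organelle was dimmer than its respiratory chain. Of 23 measured genes of the TCA cycle, complex II and pyruvate dehydrogenase, 15 were in the top 10%, with a median level of 8.47 over the list. Of 76 mitochondrial ribosomal proteins, 65 were above background on all 9 arrays but 23 in the top 10%, led by Mrps24 (10.65 ± 0.21). Of 20 genes of mitochondrial dynamics and transport 10 were there, led by Park7, a redox-sensitive protein (10.77 ± 0.12). Of 18 antioxidant and carrier genes 6 were there. Slc25a5, an ADP/ATP carrier, led these at 11.23 ± 0.27, Prdx5, a peroxiredoxin, followed at 10.57 ± 0.16, and Sod2 had a level of 9.84 ± 0.09.

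Cytosolic ribosomal proteins exceeded the mitochondrial lists in median level and in share of the net signal. The 71 cytosolic ribosomal protein genes held 10.6% ± 0.78 (SD, n = 9) of the net signal, 62 were above background on all 9 arrays and 54 (76.1%) were in the top 10%. Their median level, 11.30, was the highest of the 31 lists. Translation factors had a median level of 8.96, below those of the respiratory complexes. Of 15 measured glycolysis genes 10 were in the top 10%, with Gapdh at 12.33 ± 0.19 beside the astrocyte enzyme Aldoc. Of 18 measured chaperone and protein turnover genes 9 were, with the chaperone Hspa8 at 13.11 ± 0.16. Few markers of nuclear and cell body RNA were on the arrays. Snhg11 read 82.8 to 135, and the probe of Gas5 and both probes of Xist were above background on 0 arrays.

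Most genes varied little between mice. Among the 7008 genes above background on all 9 arrays the median SD of the log2 level was 0.20, with quartiles of 0.15 and 0.25, and the highest array exceeded the lowest by a median of 1.51-fold. The SD exceeded 0.5 in 87 genes (1.24%) and 1 in 2 genes. The ribosomal protein Rpl37 had an SD of 0.05 at rank 13, and Mgrn1 (a ubiquitin ligase) and Ift20 (a cilium transport protein) were as steady at lower levels, with SDs of 0.07 and 0.06. Because spread depends on level, each SD was also divided by the running median SD of the 100 genes on either side by level. This ratio had a median of 1.80 over the presynaptic genes, 1.87 over the interneuron markers and 2.22 over the sodium-potassium pump subunits. It was 0.90 for complex I, 0.96 for complexes III and IV, 0.99 for the ATP synthase and 0.98 for cytosolic ribosomal proteins, and 1.18 for the TCA cycle list and 1.07 for the antioxidant and carrier list.

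**Figure D3:**
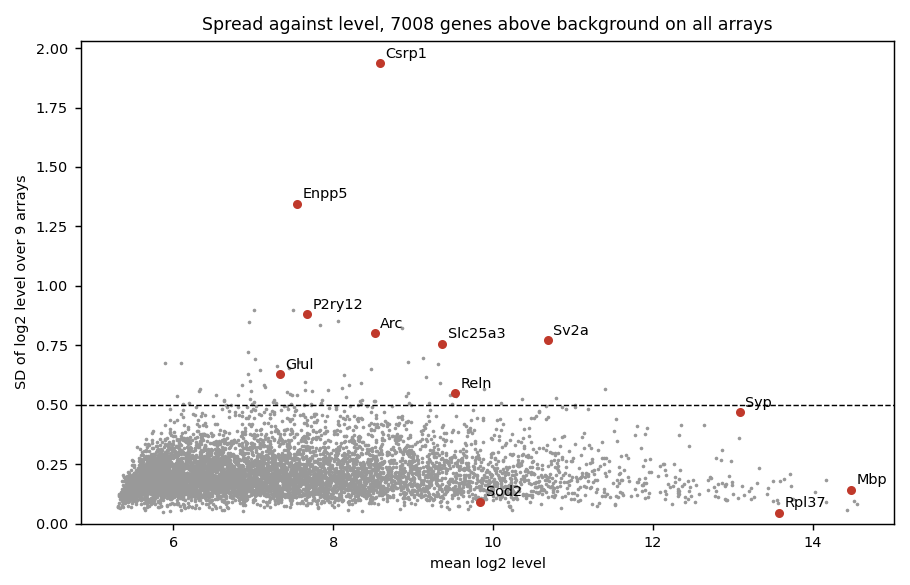
SD over the 9 arrays against mean log2 level of the 7008 genes above background on all of them, with 12 genes marked in red and a dashed line at an SD of 0.5. Csrp1 and Enpp5 lie above 1, and Mbp, Sod2 and Rpl37 lie near the lower edge.

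The largest spreads belonged to genes that were present on some arrays and close to background on others. Csrp1, a LIM-domain protein that binds actin, read 707 to 1279 on 6 arrays and 80.8, 97.4 and 135 on WT-47, WT-49 and WT-50, with an SD of 1.94 and no value in between. Enpp5, a membrane phosphodiesterase family member, read 263 to 799.7 on 5 arrays and 80.5 to 124 on WT-45, WT-46, WT-50 and WT-51 (SD 1.35). Fcer1g, an immune receptor signalling chain of microglia, was not among the genes above background on all arrays and was chosen after its values were seen. It read 245 to 394 on 6 arrays and 55.2 to 66.9 on WT-43, WT-47 and WT-48. The sets of arrays that were low for these 3 genes differed, and WT-47 was low for both Csrp1 and Fcer1g.

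Other variable genes were low on single arrays. Tesk1, a protein kinase, read 81.4 on WT-50 and 288 to 469 on the others (SD 0.85), and Crym, a thyroid hormone binding protein, read 65.2 on WT-50 and 194 to 396 elsewhere (SD 0.90). Sv2a, a vesicle glycoprotein, read 461 on WT-47 and 1426 to 2929 on the others (SD 0.77). Rims1, a scaffold of the release site (SD 0.68), and Eef2, an elongation factor (SD 0.68), were lowest on WT-50, at 90.4 and 193, against lowest values of 152 and 366 on the other 8 arrays.

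Other genes differed on several arrays. P2ry12, a purine receptor of resting microglia, read 106 on WT-51 and 389, 478 and 498 on WT-48, WT-45 and WT-44 (SD 0.88). Slc25a3, the mitochondrial phosphate carrier, read 326 and 369 on WT-48 and WT-49 and 619 to 1304 on the others (SD 0.76). The other probe of Slc25a3 did not vary in this way, reading 284 to 416 with an SD of 0.097, so the spread belongs to 1 of its 2 probes. Both probes of Sv2a were lowest on WT-47, and all 3 of Eef2 on WT-50. Low values on WT-50 were also seen in dimmer probes of other genes. A dimmer probe each of Hsp90ab1, Actb, Mbp and Hspa8 was lowest there, with SDs of 1.06, 1.02, 1.04 and 0.98. The brightest probes of Hsp90ab1, Mbp and Hspa8 had SDs of 0.16, 0.14 and 0.16 and were lowest on other arrays. That of Actb had an SD of 0.39 and was lowest on WT-50. Why probes of a gene differed on WT-50 was not tested. Micu2, a regulator of mitochondrial calcium entry, was lowest on WT-45 and WT-46, with 83.9 on WT-45, and reached 251 on WT-44 (SD 0.72). Also among the genes with the 15 largest SDs were Ehmt1 (a histone methyltransferase), Slco1c1 (a thyroid hormone transporter), Cacna2d1 (a calcium channel subunit), Arc, Fgf1 (a growth factor) and Cxadr (an adhesion receptor), with SDs of 0.90, 0.85, 0.84, 0.80, 0.70 and 0.69.

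**Figure D4:**
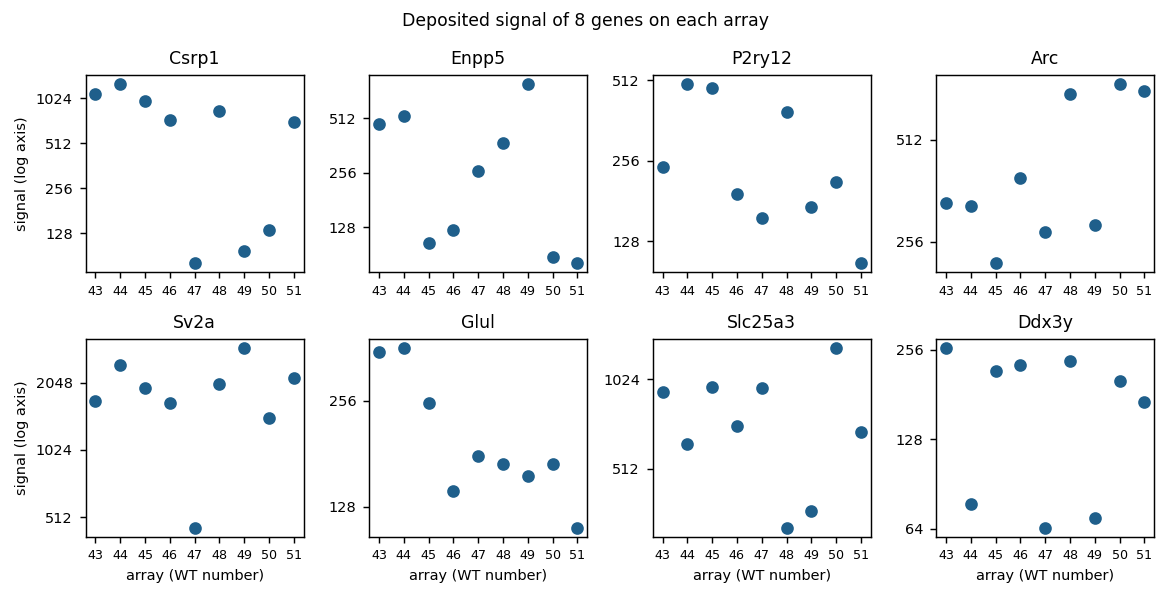
Deposited signal (log axis) of 8 genes on each of the 9 arrays, named by the WT number of the mouse. Csrp1, Enpp5 and Ddx3y each fall into a high and a low set of arrays, and the low set differs between Csrp1 and Enpp5.

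The enzyme of glutamine synthesis in astrocytes, Glul, read 252 to 363 on WT-43, WT-44 and WT-45 and 112 to 178 on the other 6 arrays (SD 0.63). Atp5a1, the alpha subunit of the ATP synthase, had its 3 highest values, 377 to 502, on these same arrays and read 145 to 304 on the others. Each of these 3 arrays was hybridised on a different chip. The labels give no sex, and Ddx3y, a helicase gene of the Y chromosome, read 171 to 260 on 6 arrays and 77.5, 64.5 and 69.5 on WT-44, WT-47 and WT-49. Ddx3y was chosen after its values were seen.

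WT-47 and WT-49 stood at opposite ends of the main axis of variation. The first principal component held 27.97% of the variance, with scores of 21.8 on WT-47 and -16.6 on WT-49 and of -5.69 to 5.14 on the others. The second component held 21.7% and was led by WT-50, with a score of 17.2. WT-50 also had the lowest mean correlation with the other arrays, 0.975, and 20.4% of all 7008 genes were highest on it. The background peaks of WT-47 and WT-49 (64.2 and 57.8) and their numbers of probes above background (11367 and 11888) lay within the range of the other 7 arrays. Of the 87 genes with an SD over 0.5, 33 were lowest on WT-47 and 32 highest on WT-49, against 19.1% and 15.7% of all 7008 genes. Genes with a large SD also weigh most in the first component, so these counts are not separate evidence for it. With WT-47 and WT-49 left out, 70 genes had an SD over 0.5, and 37 of the 50 most variable genes were shared.

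Presynaptic, interneuron and calcium signalling lists were among those that differed between WT-47 and WT-49. Presynaptic genes were on average 0.41 log2 units below their 9-array mean on WT-47 and 0.39 above it on WT-49. Of their 25 members above background, 14 were lowest on WT-47, 16 were highest on WT-49 and 21 (84.0%) were higher on WT-49 than on WT-47, as were 44.4% of all genes. Interneuron markers deviated by -0.50 and 0.47, with 12 of 13 higher on WT-49, and calcium signalling genes by -0.28 and 0.25, with 13 of 13. Excitatory and postsynaptic lists ran the same way. Glutamate receptor subunits deviated by -0.35 and 0.32, with 7 of 8 higher on WT-49. Postsynaptic density genes deviated by -0.23 and 0.18 and glutamatergic neuron markers by -0.21 and 0.21, each with 11 of 13. The dendritic messages did not do so and deviated by -0.074 and -0.086, with 5 of 12 higher on WT-49. The GABA list deviated by -0.21 and 0.37, with 4 of 7 members higher on WT-49. Its mean was lowest on WT-50 (-0.23), and on WT-47 without background correction. WT-47 and WT-48 shared a chip, as did WT-49 and WT-50. Within these chips the presynaptic mean was 0.50 lower on WT-47 than on WT-48 and 0.62 higher on WT-49 than on WT-50. The interneuron mean differed by -0.49 and 0.63 in the same pairs.

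Astrocyte, microglia and respiratory lists ran the other way between these 2 arrays. Astrocyte markers were 0.32 above their mean on WT-47, where 11 of 19 were highest (17.5% of all genes), and 2 of 19 were higher on WT-49 than on WT-47. Under median scaling their highest array was WT-44. The members higher on WT-49 were 1 of 19 for microglia, 4 of 32 for complex I, 1 of 21 for complexes III and IV and 2 of 21 for the TCA cycle list, against 44.4% of all genes. Microglia markers were 0.42 below their mean on WT-51 and 0.31 below on WT-49, and 11 of 19 were lowest on WT-51 (11.7% of all genes). With chip effects removed these means were 0.23 and 0.22 below. Oligodendrocyte markers were highest on WT-49 (0.32 above their mean), as were meningeal and choroid plexus markers (0.45). With chip effects removed the oligodendrocyte mean was highest on WT-43 (0.25) and lay 0.22 above on WT-49. Dcn, a proteoglycan of fibroblasts, read 445 on WT-49 and 102 to 221 on the others. On WT-49 the complex I mean was 0.27, that of complexes III and IV 0.28 and that of the ATP synthase 0.21 below the 9-array mean, with 20 of 32, 14 of 21 and 4 of 14 members lowest there (16.7% of all genes). Low means on WT-49 were not limited to these lists. Mitochondrial ribosomal proteins were 0.20 below their mean there, with 27 of 65 lowest, and cytosolic ribosomal proteins 0.18 below, with 24 of 62. Under median scaling the levels of all genes on WT-49 shifted by a median of 0.16, and the means of complex I, complexes III and IV and the ATP synthase then lay 0.043, 0.10 and 0.0039 below their own 9-array means and 0.20, 0.26 and 0.16 below the shifted median.

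**Figure D5:**
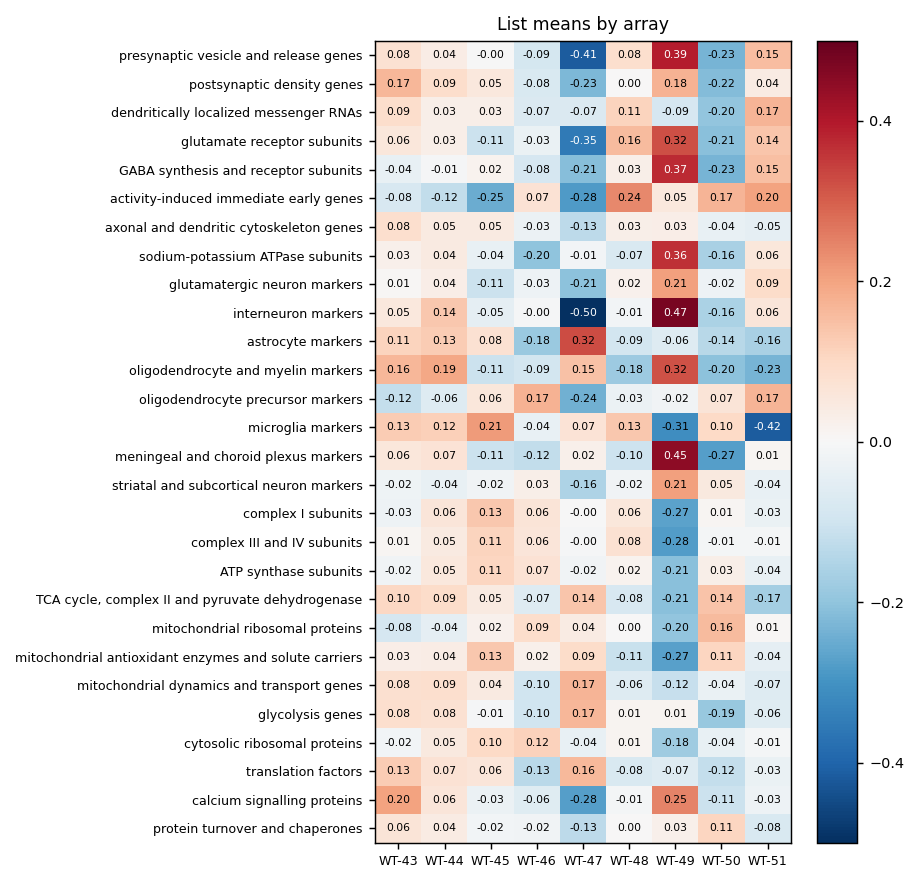
Mean log2 deviation from the 9-array mean of the members above background on all arrays, for the 28 lists with at least 5 such members (rows) on each array (columns). Red is above and blue below the 9-array mean. Presynaptic and interneuron rows are blue on WT-47 and red on WT-49, and the respiratory complex rows are blue on WT-49.

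Activity-dependent genes were detected at low to moderate levels. Immediate early genes are transcribed within minutes of neuronal firing, in part through the cyclic AMP response element (CRE), whose core is bound by CREB. Of 19 measured, 12 were above background on all 9 arrays and 3 in the top 10%: Egr1, a zinc finger transcription factor (9.36 ± 0.41), Arc, a protein of spines whose message travels into dendrites (8.52 ± 0.80), and Dusp6, a phosphatase of MAP kinases (8.52 ± 0.21). Arc read 698, 751 and 715 on WT-48, WT-50 and WT-51 and 221 to 395 on the other 6 arrays, so these sets did not overlap. The mean of the 12 genes was lowest on WT-47 (-0.28) and highest on WT-48 (0.24). Of these 12, 9 (75%) were higher on WT-49 than on WT-47, as were 44.4% of all genes.

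In addition to Arc, 3 immediate early genes had their highest levels on the same 3 arrays, a pattern looked for after the values of Arc were seen. These were Junb, a subunit of the AP-1 transcription factor, Dusp1, another MAP kinase phosphatase, and Per1, a clock gene that is also induced by CREB. Of all 7008 genes, 149 (2.13%) had the same 3 highest arrays. The differences in these genes were far smaller than in Arc. The level of Junb was 6.25 to 6.68 on the 3 arrays and 5.75 to 6.19 on the others, that of Dusp1 was 6.82 to 6.92 against at most 6.798 on the others, and that of Per1 was 7.23 to 7.51 against 6.63 to 7.06. Fos, by contrast, was highest on WT-46, WT-50 and WT-49, at 6.32, 6.27 and 6.21.

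The 250 bases upstream of the starts of these 3 genes are shown because the CRE is a textbook element of immediate early gene promoters. Sequences are from RefSeq on GRCm38.p6, 5′ to 3′ on the strand of the gene, and capitals mark each match to the short CRE core TGACG on either strand.
Junb (chr8:84978749-84978998, minus strand): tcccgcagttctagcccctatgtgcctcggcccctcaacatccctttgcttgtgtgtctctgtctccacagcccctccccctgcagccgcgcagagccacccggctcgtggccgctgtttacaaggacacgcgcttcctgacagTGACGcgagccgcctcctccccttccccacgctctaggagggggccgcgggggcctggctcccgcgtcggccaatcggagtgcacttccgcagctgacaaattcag
Dusp1 (chr17:26508473-26508722, minus strand): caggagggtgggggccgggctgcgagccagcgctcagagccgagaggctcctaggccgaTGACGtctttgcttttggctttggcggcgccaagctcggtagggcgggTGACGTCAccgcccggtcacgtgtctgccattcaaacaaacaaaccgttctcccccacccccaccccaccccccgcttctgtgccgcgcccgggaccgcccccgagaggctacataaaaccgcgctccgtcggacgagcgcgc
Per1, first start (chr11:69098699-69098948, plus strand): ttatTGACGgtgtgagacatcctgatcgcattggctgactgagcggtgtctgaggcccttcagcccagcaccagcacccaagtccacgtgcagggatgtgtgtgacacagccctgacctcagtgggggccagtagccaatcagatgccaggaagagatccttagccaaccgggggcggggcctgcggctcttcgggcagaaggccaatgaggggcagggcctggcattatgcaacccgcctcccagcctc
Per1, second start (chr11:69099902-69100151, plus strand): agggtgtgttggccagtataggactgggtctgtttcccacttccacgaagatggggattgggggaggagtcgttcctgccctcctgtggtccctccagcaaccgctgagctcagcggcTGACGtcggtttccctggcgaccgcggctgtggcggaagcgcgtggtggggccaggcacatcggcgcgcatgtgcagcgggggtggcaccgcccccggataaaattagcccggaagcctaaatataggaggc

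All 4 windows held the core. Dusp1 held 3, of which 2 overlap to form the full palindrome TGACGTCA, starting 143 bases before the gene start. Over the first listed start of 27025 genes, the core was found on either strand in 17.9% of such windows and the full site in 1.62%. The CArG box, another promoter motif, was searched in the same way. It had 0 matches in each of the 4 windows and was found in 1.4% of those over all genes. A match describes these letters and does not show that a factor binds there.

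Across the 9 arrays, 8 pairs of genes fixed by class could be set against each other, each with an exact two-sided permutation test. The correlation of Arc with Junb was 0.80 (Pearson, exact p = 0.00849, adjusted p = 0.0679 over the 8 pairs) and 0.73 (Spearman, exact p = 0.0311, adjusted p = 0.125), and without the 2 arrays farthest from the median of Arc the Pearson value was 0.53. That of Gad1 with Sst, both of inhibitory neurons, was 0.74 (Pearson, exact p = 0.0229, adjusted p = 0.0914) and 0.73 (Spearman, exact p = 0.0311, adjusted p = 0.125). It was 0.25 without the 2 arrays farthest from the median of Gad1. Leaving out the extreme arrays of a gene narrows its range, which can by itself lower a correlation. Neither fall therefore shows that a relation rests on the arrays left out. No pair passed after adjustment by the exact test, and 2 had an unadjusted p under 0.05. The other 6 pairs had adjusted p values of 0.41 or more for Pearson's r, among them Fos with Junb, Mobp with Mal in myelin, and Aldoc with Slc1a3 in astrocytes. No chip held more than 2 of these arrays, too few for a correlation within a chip. With chip effects estimated on all 50 arrays removed, no pair passed.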

How the data were processed

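Synaptosomal RNA of frontal cortex was measured on bead chips, and per the labels it was extracted with Trizol, amplified in 1 round and labelled with the TotalPrep kit. The deposited values were, per the file headers, average bead intensities of 25697 probes. The software that made them was not given in the sources used here, and no detection p came with them. A second deposited table held values that, judged by their range, lie on a log2 scale. Its normalisation and centring stay unknown, and it served as an alternative.

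Intensities of the 9 arrays were background-corrected in limma 3.58.1 (R 4.3.3) with normexp on all probes (offset 16), quantile-normalised and put on the log2 scale. Further steps used Python 3.11.15, pandas 2.3.3, numpy 2.4.6 and scipy 1.17.1. Symbols were updated from a RefSeq table, and 96.0% of probes had a match. The 9 arrays lay on 7 chips, and their number limits the precision. The 31 lists and the group itself were chosen with earlier results of these data known. Genes named were the 15 brightest, the 3 brightest and 2 most variable members of each list, members above background on 0 arrays, the 15 largest SDs, the 10 largest SD ratios, the 8 steadiest of the 1000 brightest, Sod2 and the pairs. Some genes that this rule names are not reported here. The ranking and spread steps were tested on simulated data. Alternatives were other background corrections, scalings, probe rules, filters, chip effects and arrays left out.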

Additional observations from a re-analysis of the deposited data

Results flagged for a closer look

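Of 146 levels and list means checked over the 9 arrays, 15 had 1 array whose gap to its nearest neighbour was an unusually large share of the whole range by Dixon's criterion. Chance alone gives such gaps in about 5% of groups that were not chosen by their values. Many of the checked genes were named for a large spread on these same arrays, so this rate does not apply to them. The results are also not independent of one another.

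WT-47 was the low array for 4 genes. The gap was 0.659 of the range for Sv2a (level 8.76 against 10.38 to 11.21 on the others), 0.632 for Reln, 0.548 for Slc32a1 and 0.533 for Pdyn. WT-47 was the high array for the myelin gene Mobp, with a share of 0.544 (10.76 against 9.89 to 10.29).

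WT-49 was the high array for Hspa8, with a share of 0.659 (13.50 against 12.96 to 13.15), though the other Hspa8 probe was highest on WT-47 and had an SD of 0.98, and for Dcn, with 0.529 (8.40 against 6.28 to 7.28). It was also high in the mean of the sodium-potassium pump subunits (0.546) and in that of the meningeal and choroid plexus markers (0.524). It was the low array in the means of complex I (0.585, level 9.70 against 9.93 to 10.10), complexes III and IV (0.691, 10.33 against 10.60 to 10.72) and the ATP synthase (0.543, 9.93 against 10.10 to 10.25).

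WT-50 was the low array for Tesk1, with a share of 0.758 (5.84 against 7.99 to 8.67), for Crym, with 0.6 (5.36 against 7.33 to 8.64), and for Eef2, with 0.504 (7.37 against 8.46 to 9.52). The causes were not tested.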

How the results depend on the processing

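No paired analysis was possible because a single group was described. The number of genes with an SD over 0.5, 87 as reported, was 42 without background correction, 39 with an offset of 50, 160 under median scaling, 40 in the second deposited table and 53 with chip effects removed, and 66 to 116 with 1 array left out. The cause of these differences was not tested. Without WT-47 and WT-49, an alternative chosen after seeing the data, it was 70. Pairs of genes that passed after adjustment, 0 as reported, numbered 1 under median scaling (Gad1 with Sst), 1 in the second deposited table (Arc with Junb), 0 to 2 with 1 array left out, and 2 without WT-50. The Pearson r of Mobp and Mal, -0.37 as reported, was 0.0515 under median scaling. Of the 100 brightest genes, 80 were shared when probes of a gene were averaged and 98 to 100 under every other setting run. The 50 most variable genes shared 35 to 47 members across settings. The number of lists with a median in the top 10% was 14 or 15 in all settings run. Of 4454 alternative values, 4351 stayed within the limits set for a change, but these limits were wide. An SD, the case in 1764 of them, counted as kept after any fall and after a rise of up to its own size. The count therefore does not measure how steady the spreads were. Dim genes, close to the background peak, limit what can be ranked.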
